A study of Mus musculus with 8 samples.

Results

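The reads assigned to olfactory receptor genes were examined in 8 neuroblastoma tumors grown under the skin of mice. The genes were those with an Olfr symbol and a number that had at least 80 reads in total over the 8 tumors. This minimum left 250 of the 1404 genes with an Olfr symbol, out of 35419 genes with a symbol in all. The total number of reads chose these genes, so their totals are given as a description, without a test. The tumors came from N2A (Neuro-2a), an established line of mouse neuroblastoma cells, of which 1000000 were injected under the skin of A/J mice, which the study's methods give as female and 4 weeks old when bought. Once a tumor could be felt, mice received vehicle (physiological solution, labelled mock) or SR59230A at 10 mg/kg, both into the peritoneum in 2 daily doses, and were killed after 8 days of treatment according to the methods. SR59230A blocks the β3-adrenergic receptor, and the comparison asks how its block changes RNA levels in the tumor mass. There were 4 vehicle tumors, numbered 0 to 3, and 4 SR59230A tumors, numbered 1 to 4, and a tumor held the injected cells together with the host cells around and within them. No label ties a tumor to an animal and the study's own legend describes the sequencing as done in duplicate, so the p-values measure the spread between these 8 libraries, which may in part be technical.

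Olfactory receptors are receptors of the cell membrane that bind odor molecules and act through a G protein, adenylyl cyclase and a cation channel opened by cyclic AMP. They form the largest gene family of the mouse, lie in clusters on many chromosomes, and are known for the rule that a mature olfactory neuron of the nasal lining expresses a single member. The coding part of such a gene is short and usually lies in a single exon, whereas the annotated transcript can have a long untranslated end. In bulk RNA, few cells that express a gene and little RNA per cell cannot be told apart.

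The receptor reads lay mostly on transcript models with long untranslated parts, and these parts hold sequence that many other genes also carry. The words of 30 bases below are shown because they are, in receptors described here, the word with the most hits in the transcripts of other genes. Each is shared over its whole length, is written 5′ to 3′ from the GENCODE M21 transcript with most reads of that gene (GRCm38), and was searched on both strands in the transcripts of 33969 other genes, which leave out the olfactory receptors themselves. Hits are the genes with the word, counted on each strand and added. A gene holding it on both strands therefore enters the count for each strand, and hits can exceed the number of genes.
Olfr1152: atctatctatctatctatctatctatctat
Olfr1310: acacacacacacacacacacacacacacac
Olfr720: gtgtgtgtgtgtgtgtgtgtgtgtgtgtgt
Olfr46: ctctctctctctctctctctctctctctct
Olfr1372-ps1: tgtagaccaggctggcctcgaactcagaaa
Olfr90: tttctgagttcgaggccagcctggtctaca
Olfr1385: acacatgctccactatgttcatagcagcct
Olfr11: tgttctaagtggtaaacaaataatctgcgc
The Olfr1152 word lay at bases 1636 to 1665 of a transcript of 6201 bases from chromosome 2, in the 3′ UTR, and had 115 hits in other genes. The Olfr1310 word lay at bases 1893 to 1922 of 4897, in the 3′ UTR, and had 1892 hits in other genes. Its reverse complement in Olfr720, at bases 3026 to 3055 of 4437 and again in the 3′ UTR, had as many. The Olfr46 word lay at bases 2030 to 2059 of 7750, in the 3′ UTR, and had 695 hits in other genes. These words are tandem repeats of a short unit. The Olfr1372-ps1 word lay at bases 496 to 525 of a noncoding transcript of 9812 bases from chromosome 11, and its reverse complement lay at bases 2099 to 2128 of 2680 in the 3′ UTR of Olfr90 on chromosome 17. Both had 629 hits in other genes. The letters are those of a common short interspersed repeat of the mouse genome. The Olfr1385 word, at bases 2286 to 2315 of a noncoding transcript of 3155 bases, had 70 hits in other genes, and the same word was the most shared one of Olfr1307. The Olfr11 word, at bases 3030 to 3059 of 3265 in the 3′ UTR, had 36 hits in other genes. A shared word is a description of the sequence and does not say that a read came from elsewhere.

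Of the 1404 receptor genes, 476 had no read in any tumor and 678 had reads below the minimum. The 250 genes held 98.6% of all 526268 receptor reads. Reads were concentrated on few genes: Olfr1152 alone held 21.0% of the reads of the 250 genes, the 3 genes with most reads held 38.8%, the 10 with most held 58.3% and the 50 with most held 85.4%. The median gene had 328.8 reads over the 8 tumors, whose libraries held between 23484190 and 44045575 reads each. Per length, as TPM (reads divided by transcript length and scaled to the same total in each library), the median of the mean levels was 0.58, with 162 genes under 1 TPM and 15 genes over 10 TPM. By annotation, 245 of the genes were protein-coding and 5 were pseudogenes. The genes lay on 18 chromosomes, with 63 on chromosome 2, 52 on chromosome 7 and 35 on chromosome 9, where most receptor genes lie (368, 292 and 173 of the 1404). Another annotated gene overlapped 29 of the 250.

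The minimum itself cut through a continuous range. Just outside it lay Olfr588-ps1 with 77.9 reads, Olfr403 with 79.6 and Olfr794 with 79.6. Just inside it lay Olfr518 with 80.8 reads, Olfr285 with 81.0 and Olfr575 with 81.1, so the genes on both sides had the same few reads per tumor. A minimum of 40 reads gave 311 genes and a minimum of 160 gave 182.

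Which transcript models of a receptor gene held its reads was taken from the estimated counts, which carry no positions of reads. Receptor genes had 1067 models of at most 1000 bases, about the length of the coding part, and 2142 longer ones. The short models held 1562 reads, 0.297% of all receptor reads, or 1.71 reads per kilobase, against 85.3 reads per kilobase on the longer models. The same contrast held within genes. Of the 250 genes, 160 had models of both kinds, and there the short models made up 11.6% of the bases and 0.122% of the reads, with 153 of these genes having no read on a short model. In 219 of the 250 genes a single transcript held at least 99% of the reads. Over all 250 genes, the transcript with most reads had a median length of 4129 bases. In the 217 genes where it had an annotated coding part, that part was a median of 939 bases and a median of 22.6% of the transcript. Salmon divides a read that fits several models by their estimated abundance, so the split between a short and a long model of 1 gene is an estimate. Most long models hold the coding part too, so the split does not show whether reads lay in coding or untranslated parts. Genes with a model over 1000 bases passed the minimum in 248 of 1102 cases (22.5%), and genes with short models only in 2 of 302 (0.662%).

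The receptors with reads also shared more sequence with other genes, counted here without the other olfactory receptors. In the 250 genes, a median of 4.65% of the 30-base words of the transcript occurred in another gene on either strand, against 0.0661% in the 678 genes below the minimum and 0% in the 476 genes without reads. On the same strand alone the medians were 3.83%, 0% and 0%. A word with 100 or more hits in other genes, both strands added, was present in 127 of the 250 (50.8%), in 140 of the 678 (20.6%) and in 19 of the 476 (3.99%). Length also differed between these sets, with a median longest model of 4308 bases in the 250 genes and 1040 bases in the genes without reads. Each gene was compared by 1 transcript, that with most reads, or the longest for genes without reads. Where this transcript was over 3000 bases, 190 of the 250 genes had a median of 4.90% shared words and 324 other receptors had 0.482%. The shared words lay mostly outside the coding part in the 217 of the 250 genes whose transcript had one. There, 0.841% of the words within coding parts were shared and 8.96% of those outside. In the 316 of the 476 genes without reads whose transcript had a coding part, the values were 0.925% and 1.20%. The most shared word lay in the 3′ UTR in 196 genes, in a noncoding transcript in 33, in the 5′ UTR in 20 and in the coding part in 1. It was a tandem repeat of a unit of 1 to 6 bases in 83 genes. These are properties of genes chosen by their total reads, and no test was made of them.

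**Figure D1:**
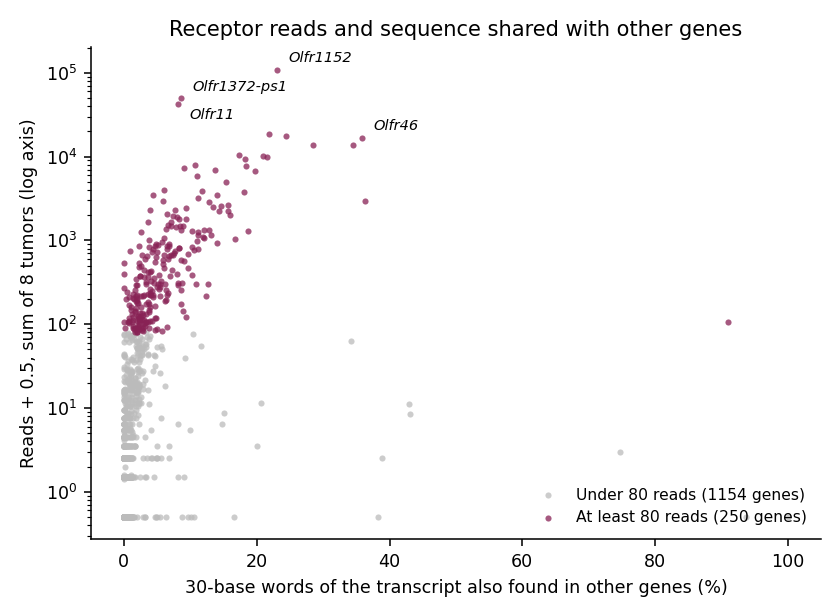
Percent of the 30-base words of each receptor transcript that also occur in other genes (x axis) against the reads of the gene summed over 8 tumors plus 0.5 (y axis, log axis), with 1 point per gene for 250 genes of at least 80 reads and 1154 genes below. Among the 250, the median was 1816 reads in the 63 genes with most shared words and 139 in the 63 with fewest. Single genes departed from this order, such as Olfr20, with 90.9% of its words shared and 5.1 to 28.8 reads per tumor.

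When the 250 genes were split into 4 sets by their shared words, the 63 genes with fewest had a median of 139 reads, the middle sets of 62 genes each had medians of 221 and 647, and the 63 genes with most had 1816. The set with most shared words held 389238 reads together and the set with fewest held 12585. By a word with 100 or more hits the order was the other way. The 127 genes with such a word had a median of 265 reads, and the 123 without had 384. Some single partners shared long stretches. Olfr1152 shared 498 words with Gm13745, a gene that overlaps it on the same strand and was listed with 0 reads in total, and 382 words, on the opposite strand, with D10Wsu102e, which had 195814 reads. On the same strand, Olfr11 shared 220 words with Patj, which had 117822 reads, and 218 with Gm11127, which had 192792. Olfr639 shared 925 words, also on the same strand, with Vmn2r53, a vomeronasal receptor gene with 60685 reads. The values of receptors that share sequence with expressed genes may thus be uncertain by more than their counting error. Olfr1033 and Olfr289-ps1 shared no word with a gene outside the family, though 12.5% of the words of Olfr1033 occurred in other receptors.

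The amount of receptor reads differed between tumors more than between treatments. Summed over the 250 genes, the vehicle tumors 0, 1, 2 and 3 had 2079, 1276, 1047 and 3733 CPM (estimated reads scaled to 1000000 reads per library), and the SR59230A tumors 1, 2, 3 and 4 had 2190, 1234, 3177 and 1942. Both treatments held a tumor near the top and tumors near the bottom, and the groups overlapped over nearly their whole range. The mean was 2034 ± 1216 (SD, n = 4) in vehicle and 2136 ± 804 (SD, n = 4) in SR59230A, a ratio of 1.05, while the highest tumor was 3.56 times the lowest. In percent of all reads, the genes took from 0.105% in vehicle tumor 2 to 0.373% in vehicle tumor 3. Without the 3 genes with most reads the range widened, from 512 CPM in vehicle tumor 2 to 2872 in vehicle tumor 3, a factor of 5.61, with a ratio of SR59230A to vehicle of 0.915.

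**Figure D2:**
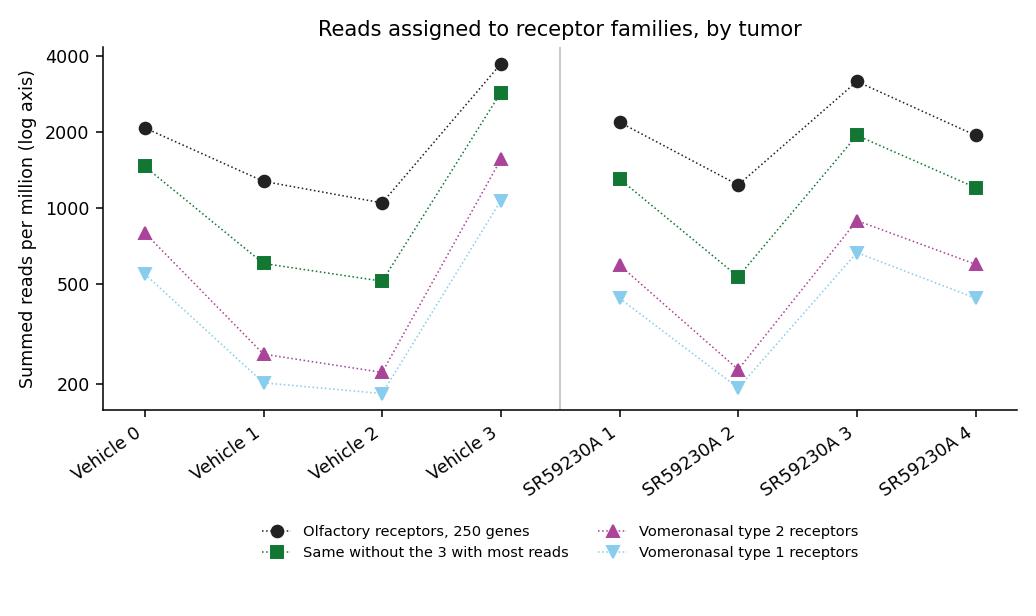
Summed CPM (y axis, log axis) in each of the 8 tumors (x axis) for the 250 olfactory receptors, the same without the 3 genes with most reads, and the vomeronasal receptor families, with 1 point per tumor. All 4 sets were highest in vehicle tumor 3 and lowest in vehicle tumor 2.

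Some other gene sets had an order of tumors like that of the receptors, and others did not. Vomeronasal receptors, which detect pheromones in a separate organ of the nose, ranged from 183 to 1071 CPM for type 1 and from 223 to 1560 for type 2, and both were highest in vehicle tumor 3, then in SR59230A tumor 3, and lowest in vehicle tumor 2. The taste, trace amine, keratin-associated and beta-defensin families took fewer reads. Taste and trace amine receptors took 0.229 to 1.33 CPM, keratin-associated proteins 0 to 0.348, and beta-defensins 3.27 to 6.43, the last with vehicle tumor 1 highest and SR59230A tumor 1 lowest, unlike the receptors. Mitochondrially encoded genes ranged from 13036 CPM in vehicle tumor 2 to 61118 in vehicle tumor 3 and 74656 in SR59230A tumor 3. Transcripts annotated as retained introns ranged from 24812 in SR59230A tumor 2 to 41971 in SR59230A tumor 3. The part of these measures in the receptor reads was not tested.

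In 3 libraries, 11 transcript models resembling satellite repeats took a large share of the reads, with 123139 CPM in vehicle tumor 0, 90260 in vehicle tumor 3 and 67214 in SR59230A tumor 4, against 58.0 to 7449 in the other 5. Vehicle tumor 0 also stood apart in its fragment length correction, 128.4 bases against 159 to 165.7 in the others. Without these 3 libraries, vehicle tumors 1 and 2 remained with the receptor amounts of 1276 and 1047 given above, and the ratio of SR59230A to vehicle was 1.89. The ratio of 1.05 thus rested on which tumors entered it, and the part of these repeats in it was not tested.

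The genes that mark olfactory neurons, the cells that use these receptors, differed widely in their reads. Omp, the olfactory marker protein of mature neurons, had 21.0, 35, 25.9 and 35 reads in the vehicle tumors and 46.0, 23, 19.0 and 14.0 in the SR59230A tumors, 218.9 in all. Of the subunits of the olfactory channel, Cnga2 and Cnga4 had 3 and 5 reads in all 8 tumors together and Cngb1 had 536.6, between 41.0 and 123 per tumor. Gng13, the γ subunit of the olfactory G protein, had 10, the chloride channel Ano2 had 11, and Rtp1 and Stoml3, which assist receptors at the membrane of these neurons, had 9 and 6. Cnga2 was at 0 in 6 of the 8 tumors. Adcy3, an adenylyl cyclase also used outside the nose, had 4091 reads, and Gnal, the α subunit, had 221.7. The 10 markers of mature olfactory neurons summed to 16.8 to 21.9 CPM in vehicle and 15.2 to 23.1 in SR59230A, most of it from Adcy3, and 4 of the 10 had under 10 reads in total. The 6 markers of immature olfactory neurons summed to 79.8 to 146 CPM in vehicle and 87.7 to 130 in SR59230A, led by Gap43, a growth cone protein of many young neurons, with 20622 reads, and Trib3, with 7579. The others on this list had fewer reads in all: Gng8 1079.5, Lhx2 436.2, Neurod1 35 and Neurog1 1. Of 8 markers of the support cells of the olfactory lining, 5 had under 10 reads in total. The neuroblastoma markers, by contrast, summed to 408 to 793 CPM.

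In the lists around receptor function, no gene was called between the treatments. Of 16 genes of olfactory signal transduction, 11 were tested, none was called, 3 had a higher and 8 a lower fitted level in SR59230A, and the median log2 fold change was -0.19. Of 22 genes for receptor folding, trafficking and choice, 18 were tested, none was called, 6 were higher and 12 lower, with a median of -0.08. The largest fitted differences in these lists were those of Rtp2, a receptor transporting protein, with -0.85 ± 0.62 (SE), and Gnal, with -0.67 ± 0.46 (SE). Lhx2, a transcription factor of receptor gene choice, had 0.59 ± 0.31 (SE), and Lbr, a nuclear envelope protein, 0.42 ± 0.15 (SE). All had an adjusted p of 0.996 (edgeR's quasi-likelihood test, Benjamini-Hochberg).

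Most receptors varied together from tumor to tumor. Vehicle tumor 3 had the highest CPM of all tumors for 191 of the 250 genes (76.4%), whereas it was the highest tumor for 9.81% of 15181 other genes with as many reads. SR59230A tumor 3 was highest for 38 genes, SR59230A tumor 1 for 13 and vehicle tumor 0 for 8. The lowest value lay in vehicle tumor 2 for 114 genes and in SR59230A tumor 2 for 94, and in 201 genes the 3 lowest tumors were vehicle 1, vehicle 2 and SR59230A 2. The median ratio of vehicle tumor 3 to vehicle tumor 2 was 5.41 in the receptors and 0.837 in the other genes. It was 6.19 in 77 type 1 and 6.34 in 67 type 2 vomeronasal receptors. Within SR59230A, the median ratio of tumor 3 to tumor 2 was 3.52 in the receptors and 0.789 in the other genes. The ratio of vehicle tumor 3 to vehicle tumor 2 was at least 2 in 226 receptors. Its median hardly varied with the percent of shared words, being 5.48, 4.73, 5.42 and 5.49 from the set with fewest to the set with most. The median was 4.69 in the 127 receptors with a word of 100 or more hits and 5.89 in the 123 without. All these ratios compare single libraries and describe them, not a treatment. In each treatment the tumors compared were those with the highest and the lowest summed receptor reads. A high ratio in the receptors therefore follows in large part from that choice.

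**Figure D3:**
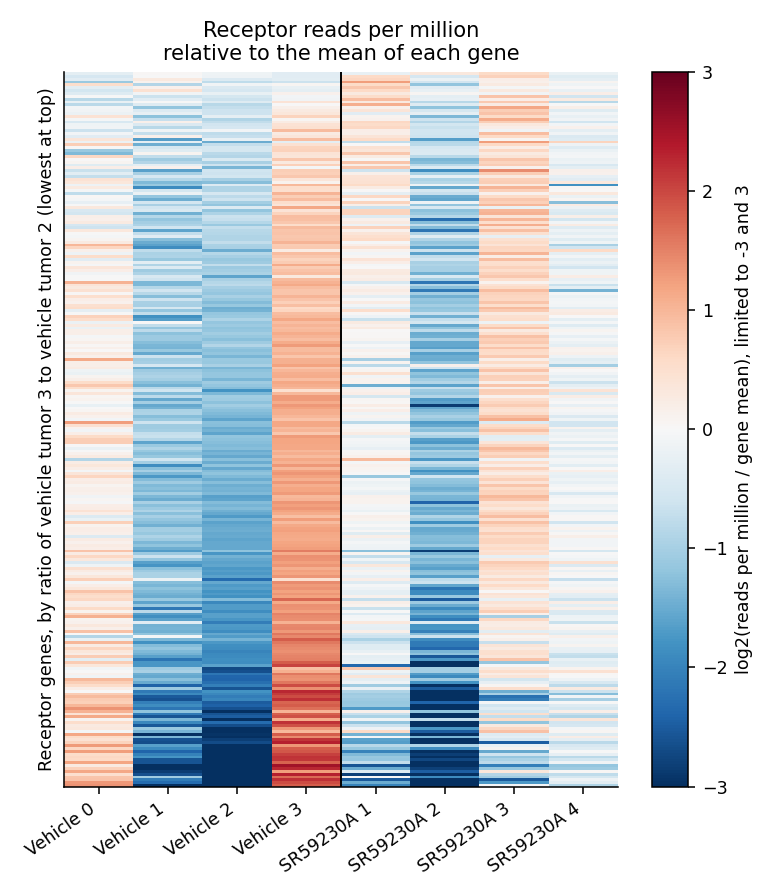
CPM of each of 250 receptor genes (rows, sorted by the ratio of vehicle tumor 3 to vehicle tumor 2) in 8 tumors (columns), as log2 of the value over the mean of that gene, limited to -3 and 3. Vehicle tumor 3 was the highest tumor in 191 rows, SR59230A tumor 3 in 38, SR59230A tumor 1 in 13 and vehicle tumor 0 in 8.

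How even the background was could be set against the counting error. If each receptor took the same share of the receptor reads in every tumor, the chi-square of its 8 values over 7 degrees of freedom would be near 1. The median was 4.62, against 23.3 when the expected reads followed the library totals instead, and 56 genes lay under 2 while 80 lay over 10. The genes most even in this share, with at least 200 reads, were Olfr1124, Olfr905, Olfr620, Olfr1346 and Olfr318. Their values were 0.727, 0.936, 1.08, 1.08 and 1.18. Their ratios of vehicle tumor 3 to vehicle tumor 2 in CPM still ran from 3.58 to 5.38. For example, Olfr1124 had 40, 45.8, 19.4 and 63.9 reads in the vehicle tumors and 49.3, 28.6, 43.4 and 36.8 in the SR59230A tumors. Olfr905 had 42.6, 39.3, 20.7 and 81.9 reads in vehicle and 50.6, 40.3, 43.1 and 58.0 in SR59230A. Both were highest in vehicle tumor 3 and lowest in vehicle tumor 2, and both groups overlapped. Estimated counts that share sequence are not independent draws, so these values order the genes and are not tests. The value also grows with the number of reads, and it measures departure from the shared order of tumors, not flatness. Olfr1388, with 7647 reads, had a value of 176 although its highest CPM was 1.61 times its lowest.

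Single receptors stood out from this background, first of them Olfr1152. This protein-coding gene on chromosome 2 had 84.0, 108, 84.2 and 105 TPM in vehicle tumors 0 to 3 and 92.5, 111, 192 and 91.5 TPM in SR59230A tumors 1 to 4. SR59230A tumor 3 stood alone above the rest, and the other 7 tumors overlapped between 84.0 and 111 TPM. Its ratio of vehicle tumor 3 to vehicle tumor 2 in CPM was 1.93, well under the median of 5.41, and its share of all receptor reads ran from 14.5% in vehicle tumor 3 to 28.9% in SR59230A tumor 2. The fitted log2 fold change was 0.31 ± 0.36 (SE; edgeR, adjusted p = 0.996), and it was -0.14 without SR59230A tumor 3, the tumor that set its sign.

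Olfr11, on chromosome 13, had the second highest level per length and the least even share of the receptor reads. In CPM it varied little between tumors, the highest being 1.88 times the lowest, against a median of 6.33 in the receptors. It had 61.4, 106, 96.4 and 53.2 TPM in the vehicle tumors and 79.9, 129, 123 and 72.4 TPM in the SR59230A tumors. Vehicle tumor 3, the highest for most receptors, was the lowest of all 8 tumors, in TPM and in CPM, and the groups overlapped. The highest tumor was SR59230A tumor 2 in TPM and SR59230A tumor 3 in CPM, with 199 and 239 CPM in these tumors. Its chi-square over degrees of freedom was 1539, the largest of the 250, and its ratio of vehicle tumor 3 to vehicle tumor 2 in CPM was 0.867. The fitted log2 fold change was 0.38 ± 0.21 (SE; edgeR, adjusted p = 0.996), and 0.12 without SR59230A tumor 3. Olfr11 was 1 of only 2 receptors with such a ratio under 1, the other being Olfr286 at 0.882.

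Olfr1372-ps1, a transcribed pseudogene on chromosome 11, had 13.9, 23.8, 17.5 and 21.9 TPM in the vehicle tumors and 62.1, 24.5, 31.9 and 24.6 TPM in the SR59230A tumors. SR59230A tumor 1 stood apart, and the lowest SR59230A value of 24.5 lay just above the highest vehicle value of 23.8 on this scale, while in CPM the groups overlapped. In SR59230A tumor 1 it had 13470 reads where 6916 were expected from its share over all 8 tumors, 1.95 times as many, and there it passed Olfr1152 as the receptor with most reads, at 18.6% of the tumor's receptor reads. The fitted log2 fold change was 0.79 ± 0.32 (SE; edgeR, adjusted p = 0.996), and 0.52 without SR59230A tumor 1. In the same tumor the 9 skeletal muscle markers summed to 2642 CPM, against 230 in SR59230A tumor 2, 9.18 to 24.6 in the other SR59230A tumors and 8.46 to 11.5 in vehicle. Of the 9 markers 6 could be tested, and none was called. All 6 had a higher fitted level in SR59230A, but each had most of its reads in SR59230A tumor 1. The 6 are thus not separate observations of a treatment. None of the 9 markers was listed at under 10 reads in total. Their part in the value of Olfr1372-ps1 was not tested. The gene overlaps Gm26551 on the same strand.

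Together these 3 genes took a share of the receptor reads that was largest where the background was lowest: 56.8% in SR59230A tumor 2, 52.8% in vehicle tumor 1 and 51.1% in vehicle tumor 2, against 23.1% in vehicle tumor 3. In the remaining tumors the share was 29.7% to 40.4%.

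**Figure D4:**
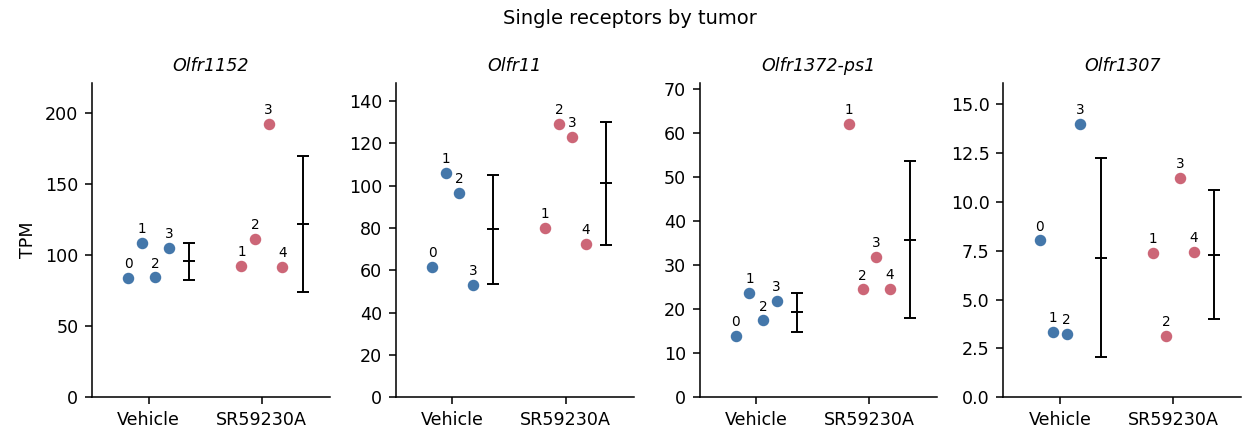
TPM (y axis, starting at 0) of 4 receptors in 4 vehicle and 4 SR59230A tumors, with points labelled by tumor number and bars for the mean ± SD. Olfr1307, from 3.14 to 14.0 TPM, was highest in vehicle tumor 3, as most receptors were, and Olfr1152, Olfr11 and Olfr1372-ps1 did not.

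Olfr1307, shown for contrast and picked for this after its values were seen as the receptor with the fourth most reads, had 8.03, 3.33, 3.23 and 14.0 TPM in vehicle and 7.39, 3.14, 11.2 and 7.43 TPM in SR59230A. Its order was close to that of the summed background, with vehicle tumor 3 highest and the groups overlapping.

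The other receptors with the highest levels per length were of different kinds. Olfr1385, on chromosome 11, had 25.6, 13.2, 11.4 and 48.4 TPM in vehicle and 24.5, 10.0, 30.1 and 20.0 TPM in SR59230A. Olfr839-ps1, on chromosome 9, had 16.3, 7.38, 7.06 and 27.4 TPM in vehicle and 19.5, 7.78, 28.1 and 16.4 TPM in SR59230A. In both, tumor 3 was the highest of its treatment and the groups overlapped. Olfr90, on chromosome 17, and Olfr639, on chromosome 7, varied in like manner, from 7.31 to 25.5 TPM and from 7.15 to 24.9 TPM. Olfr1388, on chromosome 11, was the flat one among them.

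Olfr1388 had 9.63, 15.6, 14.3 and 12.0 TPM in vehicle and 18.8, 17.5, 13.1 and 15.3 TPM in SR59230A. No tumor stood apart and the groups overlapped, with a ratio of vehicle tumor 3 to vehicle tumor 2 of 1.28 in CPM. The ratio was under 1.5 in 10 of the 250 receptors. These were Olfr11, Olfr286, Olfr889, Olfr370, Olfr699, Olfr1423, Olfr655, Olfr1388, Olfr118 and Olfr78, all of them protein-coding by annotation. Olfr889 had 2.86, 5.94, 3.68 and 2.62 TPM in vehicle and 6.75, 4.27, 4.41 and 3.24 TPM in SR59230A. It is named, as are Olfr286, Olfr699, Olfr1423, Olfr655 and Olfr118, for this ratio, after its values were seen.

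Olfr289-ps1 and Olfr1033 were high per length with few reads, because the transcripts holding their reads are short, at 369 and 316 bases. Olfr289-ps1, a pseudogene on chromosome 3, had 60, 59, 36 and 65 reads in vehicle and 79, 61, 110 and 65 in SR59230A. Olfr1033, on chromosome 2, had 41, 58, 18 and 38 reads in vehicle and 32, 39, 92 and 83 in SR59230A. In both, SR59230A tumor 3 held the most reads although it was the library with the fewest reads in all, and the groups overlapped. At such lengths TPM depends strongly on the fragment length correction, so their place among the highest receptors is uncertain.

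Other receptors stood out for a single tumor. Olfr1039, on chromosome 2, had 126, 18.5, 9.8 and 605 reads in vehicle and 19.9, 3.9, 20.8 and 53.1 in SR59230A. Vehicle tumor 3 held 605 reads where 177 were expected from the gene's share, 3.42 times as many, and the groups overlapped. Olfr720, on chromosome 14, had 207, 37.7, 23.3 and 683 reads in vehicle and 57.9, 7.6, 87.7 and 142.5 in SR59230A, with vehicle tumor 3 at 2.65 times the expected number. Olfr1310 and Olfr46 were likewise above their expected reads in vehicle tumor 3, by 2.26 and 1.54 times. In 34 of the 250 genes 1 tumor exceeded 5 times the median of the others, and 9 genes had no read in some tumor.

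Between treatments, no receptor differed at the threshold of an adjusted p under 0.05 with a log2 fold change of at least 0.5 in size. By edgeR, 230 of the 250 genes had enough reads to be tested and 0 were called, as were 0 of all 15193 genes tested (0%). At an unadjusted p under 0.05 there were 3 of the 230 receptors (1.30%) and 704 of the 15193 genes (4.63%). DESeq2, run on the same counts, called 36 of 16246 genes (0.222%) and 0 receptors, and at an unadjusted p under 0.05 it had 10 of 250 receptors (4.00%) and 3.42% of all genes, so the order of these shares depended on the tool. On simulated counts for this comparison with 15193 genes, edgeR recovered 42.4% of 99 genes changed by a log2 fold change of 1 and 78.4% of 97 changed by 2. The changed genes were drawn at random from all genes tested, so these are not the rates for receptors. A change of that size in a receptor could have been missed. The fitted level was higher in SR59230A for 89 of the 230 receptors and lower for 141, with a median log2 fold change of -0.11 beside -0.00 over all genes. This direction was not stable: limma on log2(TPM + 0.1) had 154 higher and 76 lower, and edgeR without vehicle tumor 3 had 200 higher and 35 lower. No receptor tested had groups that did not overlap in CPM, where 0.796% of all genes had SR59230A wholly above vehicle and 0.968% wholly below.

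**Figure D5:**
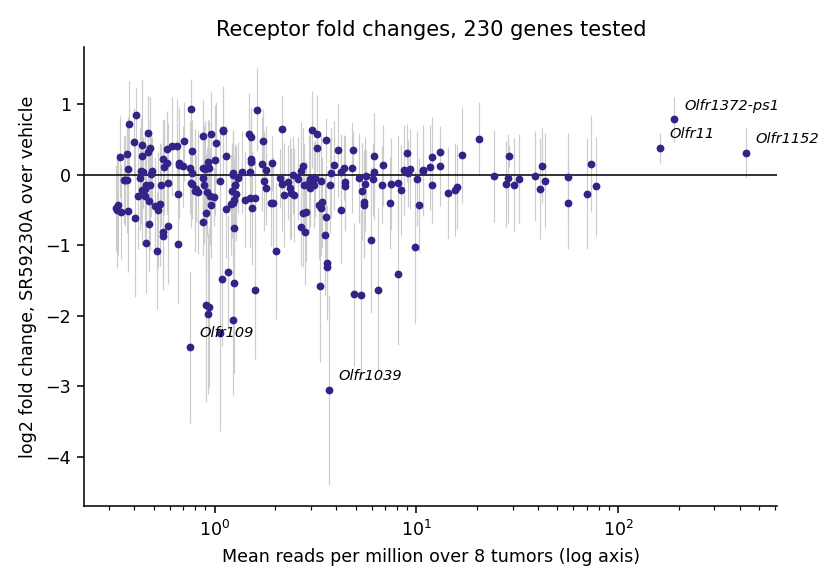
Log2 fold change of SR59230A over vehicle (y axis, points with bars of 1 SE from edgeR) against the mean CPM over 8 tumors (x axis, log axis) for 230 receptors tested. The values had a median of -0.11, and a tail of genes down to -3.06 for Olfr1039 had wide errors.

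The 8 receptors with the smallest unadjusted p, which are a description since they were chosen by it, fell into 2 kinds. Olfr1039, Olfr109, Olfr959 and Olfr77 had lower fitted levels in SR59230A, with log2 fold changes of -3.06 ± 1.35, -2.45 ± 1.08, -2.06 ± 1.07 and -1.31 ± 0.62 (SE). Olfr109 had 36.6, 5.1, 5.8 and 101 reads in vehicle and 11.6, 3.0, 4.0 and 11.9 in SR59230A, and Olfr77 had 246, 103, 47.0 and 234 in vehicle and 68.7, 48.9, 64.4 and 78.2 in SR59230A. Their high values lay in vehicle tumors 0 and 3, the 2 vehicle libraries with most satellite-like reads. Without vehicle tumor 3 alone, the log2 fold changes of Olfr1039, Olfr109 and Olfr959 were -1.03, -1.09 and -0.63. Without vehicle tumors 0 and 3 and SR59230A tumor 4, the log2 fold changes of Olfr1039, Olfr959 and Olfr77 changed sign, to 0.65, 0.52 and 0.19.

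Olfr1372-ps1 and Olfr11, described above, and Olfr370 and Olfr78 made up the second kind, with higher fitted levels in SR59230A. Olfr78 is a receptor for short-chain fatty acids and lactate that is known from outside the nose, among others in the carotid body and in blood vessels. It had 6.4, 14.0, 8.0 and 11.0 reads in vehicle and 25.9, 15.0, 11.0 and 15.8 in SR59230A, with a log2 fold change of 0.84 ± 0.39 (SE). Olfr370, on chromosome 8, had 10.0, 36.1, 14.0 and 14.1 reads in vehicle and 60.9, 22.4, 20.1 and 26.2 in SR59230A, with 0.93 ± 0.43 (SE), and 0.56 without SR59230A tumor 1. In both, SR59230A tumor 1 had the most reads, the groups overlapped, and the reads were few. The adjusted p of all 8 receptors was 0.996 by edgeR. Olfr78 overlaps Olfr560, another receptor gene, on the same strand, and 67.3% of its reads lay on its main transcript, so its count is less certain than that of a receptor standing alone.

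For the 8 receptors with the highest levels per length that were not also named for a small p, exact two-sided permutation tests of log2 CPM over all 70 assignments gave p between 0.114 for Olfr1388 and 1 for Olfr90, before any adjustment. The smallest p that 4 against 4 tumors allow is 0.029.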

How the data were processed

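Total RNA of 8 tumors was sequenced by the authors from stranded total RNA libraries. The authors quantified each tumor with Salmon in mapping-based mode and deposited a file per tumor with transcript length, effective length (other values, in bases), TPM and estimated counts of reads per transcript. The study's methods name a GRCm38 transcriptome and the submitters' processing notes name GRCm39, so genes are given by chromosome only. A deposited gene-level table of normalized counts was not used.

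Transcripts were matched by identifier, without version, to GENCODE M21 (GRCm38), which named 115685 of 116747 (99.1%), and estimated counts and TPM were summed per gene symbol. CPM are reads scaled to 1000000 reads of all genes in a tumor. Libraries held 23484190 to 44045575 reads, and no interval for counting error is given since shared sequence adds error beyond it. Genes were compared with edgeR 4.0.16 (R 4.3.3; rounded counts, TMM factors, filterByExpr, quasi-likelihood test, Benjamini-Hochberg adjustment over all genes tested, all 8 tumors, no covariate) at an adjusted p under 0.05 and a log2 fold change of at least 0.5 in size. The steps were tested on simulated counts. DESeq2 1.42.0, limma 3.58.1 on log2(TPM + 0.1) and log2(TPM + 1), other scalings, no filter on low counts, a length offset, a block for the replicate number and fits without each tumor in turn were alternatives. Words of 30 bases were compared between transcripts on both strands.

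The receptors, gene lists and tests were chosen with earlier results of these data known. Receptors were named by a rule: the 10 highest in mean TPM, the 8 smallest unadjusted p, the genes of the 10 largest deviations from equal shares (observed minus expected over the square root of expected), the 5 most even with at least 200 reads, and the 3 nearest the minimum on each side. The 11 satellite-like models were picked after seeing the data.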

Additional observations from a re-analysis of the deposited data

Results flagged for a closer look

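In the 29 quantities looked at by treatment, 58 groups of 4 tumors, a tumor far from the other 3 of its group was found in 3 groups. Chance alone gives such a tumor in about 1 in 20 groups. Olfr1152 had 770.9 CPM in SR59230A tumor 3, against 339 to 408 in the other SR59230A tumors. Olfr1033 had 0.5761 CPM in vehicle tumor 2, against 1.32 to 1.43 in the other vehicle tumors. Olfr285, a gene just inside the minimum of reads, had 0.737 CPM in vehicle tumor 3, against 0.129 to 0.210 in the other vehicle tumors.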

How the results depend on the processing

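The count of 0 receptors called held under every alternative run, leaving out each tumor included (0 to 0). Over all genes, DESeq2 called 36, and leaving out each tumor gave 0 to 1. Whether the replicate numbers pair the tumors could not be decided. The deviations of vehicle and SR59230A tumors with the same number, 1 to 3, correlated at 0.01, 0.626 and 0.534. Vehicle tumors 2 and 3 correlated best with the SR59230A tumor of their number, and vehicle tumor 1 with SR59230A tumor 2 (0.631). Libraries can also vary together without a shared animal or day, so these values cannot decide it. With the replicate block, on the tumors numbered 1 to 3, 2 genes were called and the receptor median log2 fold change was 0.22, and the same 6 tumors unblocked, an alternative added after seeing the data, gave 1 gene and -0.04. Over the fits that left out 1 tumor, the receptor median was lowest at -0.51 when SR59230A tumor 3 was left out and highest at 0.54 when vehicle tumor 3 was, and limma on TPM gave 0.10 and 0.03, so its sign depended on these choices. The ratio of summed receptor reads ran from 0.879 to 1.46 over the left-out tumors.

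Without the 3 libraries with most satellite-like reads (added after seeing the data), the receptor median was 1.32, with 224 of 224 receptors higher in SR59230A, 29 of them (12.9%) at an unadjusted p under 0.05, beside 7.21% of all genes, and 0 called, and the ratio of summed reads was 1.89. This comparison kept only vehicle tumors 1 and 2, both low in receptor reads, against SR59230A tumors 1, 2 and 3. Most receptors varied together between tumors, so the 224 receptors are not separate observations. In this comparison the log2 fold change of Olfr1039 was 0.65, of Olfr77 0.19 and of Olfr959 0.52, all reversed. Olfr1152 ran from -0.14 to 0.58 over the left-out tumors, the sign turning without SR59230A tumor 3. The cause was not tested. A minimum of 40 or 160 reads gave 311 or 182 receptors. With 4 tumors per treatment, changes smaller than the spread between tumors could not be detected.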
